A study of Oryctolagus cuniculus with 9 samples.

Results

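The proteasome genes described here are the genes of the rabbit diaphragm expression table whose symbol starts with PSMA, PSMB, PSMC, PSMD, PSME, PSMF or PSMG followed by a number. The table names 47 such genes among 29076, and 45 of them had a mean of at least 0.5 FPKM over 9 libraries, a level that 12981 genes of the table reached. FPKM, the unit of every level below, counts sequenced fragments relative to transcript length and to the size of the library. PSMA8 and PSMB11, the alpha and beta subunits known from testis and thymus, were listed at 0 in every library. The rule for members used names and the mean over all libraries, not a difference between groups. It was set with earlier results of these data known. The 45 genes comprise 6 alpha and 6 constitutive beta subunits of the core, 3 immunoproteasome subunits, 6 ATPases and 11 other subunits of the regulatory particle, 4 activators, 1 inhibitor, 3 assembly chaperones of the regulatory particle and 4 of the core. The remaining gene, PSMC3IP, shares only the name: its product is a recombination cofactor that binds a proteasome ATPase. No gene of the table is named PSMA7 or PSMB7, but 2 neighbouring unnamed genes on one scaffold are both described as the PSMB7 subunit and were summed where PSMB7 is needed.

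Each group holds 3 diaphragm libraries. The PEEP8 group came from rabbits ventilated with positive end-expiratory pressure (PEEP, the airway pressure kept at the end of a breath), at a level the labels give as 8 with no unit and no duration; the study's methods do not describe this group. Rabbits of the MV group had 48 h of ventilation with PEEP set to 0 cmH2O. The study's methods give volume control as the ventilator setting, and its abstract and discussion name the mode as assist-control. The study reports that the rabbits' own breathing was preserved in that mode. The CON group was anaesthetised and breathed spontaneously. New Zealand white rabbits under pentobarbital with dexmedetomidine sedation are stated for the MV and CON groups, so the sedation is shared by both, and age and sex are not given in the sources used here. The labels do not tie each library to its own rabbit. The p-values here set differences between groups against the spread between libraries, which may not be the spread between rabbits.

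The proteasome is the barrel-shaped protease that degrades proteins tagged with ubiquitin. Its core is built of stacked rings of alpha and beta subunits, with PSMB5, PSMB6 and PSMB7 carrying the proteolytic sites. The regulatory particle caps the core, binds the ubiquitin chain, removes it and feeds the unfolded substrate inwards with a ring of ATPases. Interferon induces PSMB8, PSMB9 and PSMB10, which replace PSMB5, PSMB6 and PSMB7 in newly built cores and form the immunoproteasome, known mainly from immune cells. In skeletal muscle the ubiquitin-proteasome system is a main route of myofibrillar protein breakdown during disuse.

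Total counts ranged from 33024311 to 41077310 in the PEEP8 group, from 24670232 to 43697018 in the MV group and from 21646702 to 31791693 in the CON group. Muscle fibre markers (6 of a list of 9 found in the table) were present in every library, with summed levels of 20320 to 38940 FPKM in the PEEP8 group, 27500 to 40130 FPKM in the MV group and 53000 to 63630 FPKM in the CON group. The sums of both ventilated groups lay below all CON libraries. ACTA1 was the largest part, with means of 14610, 17070 and 33340 FPKM in the PEEP8, MV and CON groups. DES instead had log2 fold changes of 0.57 ± 0.69 and 0.71 ± 0.69 in the PEEP8 and MV groups against CON. The 100 most abundant genes held 26.9% to 40.6% of counts in PEEP8, 35.7% to 40.6% in MV and 44.4% to 49.0% in CON. FPKM is relative to library size, and the part of this in the levels below was not tested. Some single libraries stood apart. PEEP8 replicate 3 had 7502 FPKM of adipocyte markers (3 of 4 in the table, LEP at 0 in at least 1 library), against 205 to 712 FPKM in the other 8 libraries, and its scaling factor by TMM (trimmed mean of M-values, which adjusts for differences in RNA composition) was 1.465, against 0.786 to 1.102 elsewhere. This library also had the highest fibroblast, macrophage, leukocyte and endothelium marker sums, at 2153, 83.7, 82.6 and 261 FPKM. Its muscle fibre sum was the lowest, at 20320 FPKM. Neutrophil markers differed between the groups: they summed to 150 to 284 FPKM in the PEEP8 group and 30.5 to 1027 FPKM in the MV group, against 2.96 to 19.1 FPKM in the CON group, without overlap, and MV replicate 1 held the highest value. Of these 6 markers S100A12, CSF3R, CXCR2 and MMP9 were at 0 in at least 1 library, and S100A8, S100A9 and S100A12 were higher in both ventilated groups at unadjusted p-values of 0.00069 to 0.017 in edgeR. CON replicate 1 had the lowest summed leukocyte markers, 11.7 FPKM, against 14.5 to 82.6 FPKM elsewhere. The part of these cell types in the results was not tested. In bulk tissue, fewer cells of a type and less RNA per cell cannot be told apart.

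The first question was how abundant the subunits were and whether their order differed between groups. The 29 core and regulatory particle subunits were among the more abundant messages of the diaphragm: the median subunit stood at the 96.1, 95.0 and 94.2 percentile of the tested genes in PEEP8 replicates 1, 2 and 3, at the 95.8, 95.5 and 95.1 percentile in the MV libraries and at the 93.8, 94.0 and 93.9 percentile in the CON libraries. Values of 3 libraries are given in this replicate order throughout. The most abundant of the 29 in every group was PSMB6, the caspase-like proteolytic subunit, with 375 ± 96.8 FPKM in the PEEP8 group, 563 ± 54.3 FPKM in the MV group and 396 ± 87.1 FPKM in the CON group (mean ± SD, n = 3 each). PSMC5 and PSMB1 came next among the 29 in all groups. The lowest was the scaffold subunit PSMD1 in the MV and CON groups, at 48.4 ± 3.67 FPKM and 24.2 ± 2.39 FPKM, and the deubiquitinase PSMD14 in the PEEP8 group, at 42.2 ± 11.4 FPKM. Between the highest and lowest subunit the level differed 8.89-fold in the PEEP8 group, 11.6-fold in the MV group and 16.3-fold in the CON group. In the PEEP8 group PSMD1 averaged 44.6 ± 6.09 FPKM, so the 2 lowest subunits there differed by less than their spread.

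**Figure D1:**
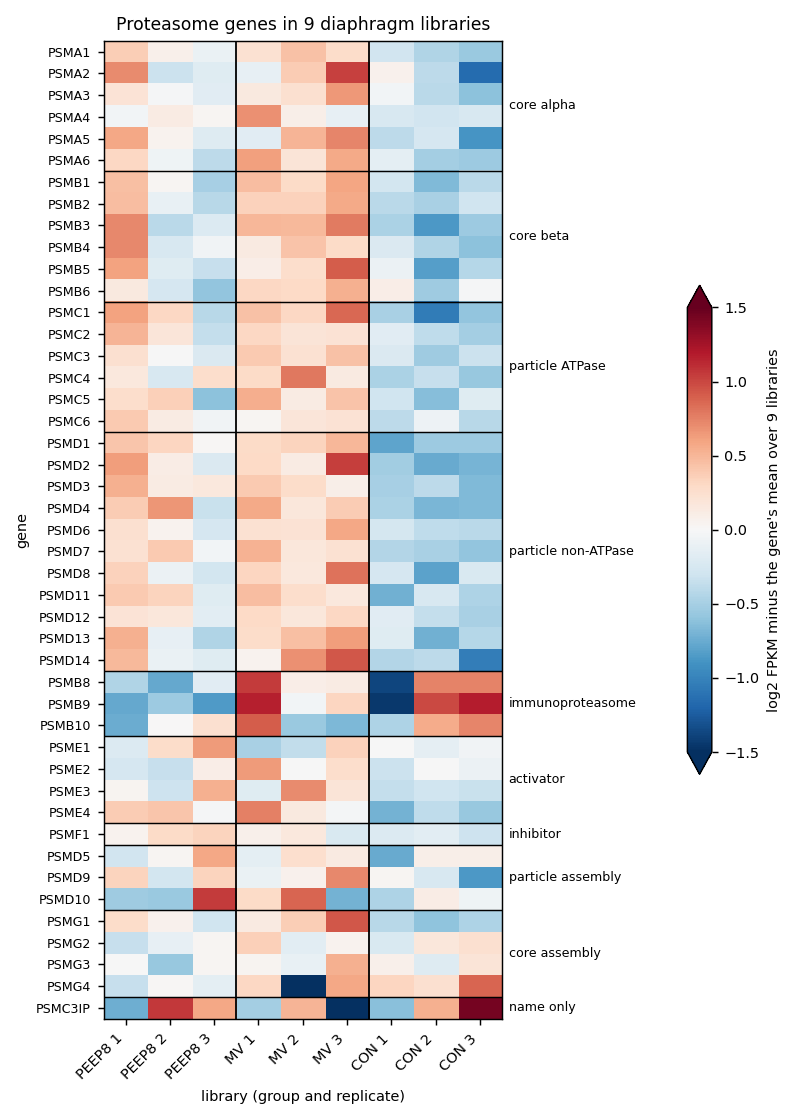
Heatmap of 45 proteasome genes (rows, by role) in 9 libraries (columns: PEEP8, MV and CON, replicates 1 to 3), coloured by the log2 FPKM of the gene minus its mean over the 9 libraries; colours are capped at the ends of the scale. The rows of the core and regulatory particle are mostly blue in the CON libraries and mostly red in the MV libraries and PEEP8 replicate 1, whereas PSMB8 and PSMB9 are darkest blue in CON replicate 1 and red in CON replicates 2 and 3.

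The MV libraries were set against the CON libraries to ask what ventilation without PEEP did, and all 29 core and regulatory particle subunits were higher in the MV group. Their log2 fold changes ran from 0.36 for PSMC6 to 1.16 for PSMC1 with a median of 0.74, beside a median of 0.02 over the 12981 genes tested. The 12 core genes summed to 2989, 2960 and 3622 FPKM in the MV libraries, against 2121, 1619 and 1794 FPKM in the CON libraries. For the 17 genes of the regulatory particle the sums were 2887, 2608 and 3206 FPKM in the MV libraries, against 1713, 1444 and 1605 FPKM in the CON libraries. The lowest MV library therefore lay above the highest CON library for both parts of the complex, as it also did for the neutrophil markers. Single subunits behaved alike: for 28 of the 29, all MV libraries exceeded all CON libraries, the exception being PSMA2. Over all 45 members 32 were separated in this way and 0 in the other direction, where 10.3% of all tested genes were separated upwards and 4.91% downwards.

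In edgeR the adjusted p of every gene stayed above 0.05 here (0 of 12981 called, 0.0%; smallest adjusted p = 0.287), and the smallest for a member was 0.617. DESeq2 made 94 calls upwards and 60 downwards over all genes and limma, run on log2(FPKM + 1), made 2 and 0, with 0 members among them in either tool. Without adjustment, 8 members were higher and 0 were lower with p under 0.05 in edgeR, beside 490 of all genes (3.77%) upwards and 414 (3.19%) downwards. These counts depended on single libraries: leaving out CON replicate 2 turned the 8 into 0, leaving out MV replicate 3 or CON replicate 3 gave 1, CON replicate 1 gave 3, MV replicate 2 or PEEP8 replicate 2 gave 4, and PEEP8 replicate 3 gave 12. Over all genes the upward count was 278 of 12981 without CON replicate 2 and 583 without PEEP8 replicate 3. The direction did not depend on single libraries: all 29 subunits stayed above 0 in each of the 21 alternatives. These reuse the same libraries, and after division by the TMM factor 24 of the 29 were highest in MV replicate 3. The 29 are thus not independent observations. The median of the 45 members had a pooled SD of 0.38 between libraries of a group, in log2 of such values plus 1. Scaling mattered for the separation, since after division by the TMM factor 17 of the 29 subunits and 19 of the 45 members remained separated, beside 6.76% of all genes upwards and 7.84% downwards.

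The alpha ring, which forms the gate of the core, had 6 of 6 members above 0 and 0 at an unadjusted p under 0.05. PSMA5 had 80.6, 129 and 150 FPKM in the MV libraries, against 68.9, 76.0 and 49.0 FPKM in the CON libraries, a log2 fold change of 0.85 ± 0.45 (SE; unadjusted p = 0.088, edgeR). Its groups did not overlap, but the gap between the nearest libraries was small beside the spread of the MV group. PSMA1 had 116, 135 and 120 FPKM in the MV libraries, against 81.4, 72.5 and 67.5 FPKM in the CON libraries. PSMA6 had 363, 271 and 353 FPKM in the MV libraries, against 214, 168 and 163 FPKM in the CON libraries. PSMA1 and PSMA6 were thus separated by wider gaps than PSMA5, with log2 fold changes of 0.64 ± 0.36 and 0.76 ± 0.42.

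Among the constitutive beta subunits, 6 of 6 were above 0 and PSMB3 was at an unadjusted p under 0.05. PSMB3, a structural subunit, had 351, 350 and 429 FPKM in the MV libraries, against 179, 137 and 171 FPKM in the CON libraries (log2 fold change 1.12 ± 0.47, unadjusted p = 0.040 and adjusted p = 0.693, edgeR). PSMB1 had 427, 379 and 469 FPKM in the MV libraries, against 256, 197 and 235 FPKM in the CON libraries, and PSMB2 had 227, 225 and 265 FPKM in the MV libraries, against 134, 127 and 144 FPKM in the CON libraries. Both of these structural subunits were separated without overlap. The proteolytic subunits were less even. PSMB5, the chymotrypsin-like subunit, had 266, 297 and 462 FPKM in the MV libraries, against 232, 139 and 184 FPKM in the CON libraries (0.81 ± 0.52). PSMB6 had 533, 530 and 626 FPKM in the MV libraries, against 463, 297 and 427 FPKM in the CON libraries (0.40 ± 0.45), the smallest change among the constitutive beta subunits and smaller than its standard error. The summed PSMB7 genes, the trypsin-like subunit, had 385, 400 and 477 FPKM in the MV libraries, against 254, 224 and 283 FPKM in the CON libraries.

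The ATPases had 6 of 6 members above 0 and 2 at an unadjusted p under 0.05. PSMC1 had 313, 286 and 420 FPKM in the MV libraries, against 165, 112 and 153 FPKM in the CON libraries (1.16 ± 0.50, unadjusted p = 0.043, edgeR). PSMC4 had 84.8, 120 and 76.0 FPKM in the MV libraries, against 50.1, 54.5 and 46.6 FPKM in the CON libraries (0.78 ± 0.31, unadjusted p = 0.029, edgeR). The other 4 ATPases lay between 0.36 and 0.63.

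The non-ATPase subunits held 3 of the 6 subunits at an unadjusted p under 0.05. PSMD1, a scaffold that binds ubiquitin receptors, had 45.5, 47.1 and 52.5 FPKM in the MV libraries, against 21.5, 25.6 and 25.6 FPKM in the CON libraries (0.93 ± 0.35, unadjusted p = 0.025, edgeR). No MV or CON library fell between 25.6 and 45.5 FPKM, with an SD of 3.67 FPKM in the MV group and 2.39 FPKM in the CON group. PSMD14, the metalloprotease that cuts the ubiquitin chain off the substrate, had 41.0, 63.6 and 75.1 FPKM in the MV libraries, against 29.2, 29.9 and 19.2 FPKM in the CON libraries (1.15 ± 0.45, unadjusted p = 0.027, edgeR). PSMD2, the second large scaffold, had 175, 155 and 293 FPKM in the MV libraries, against 99.4, 84.1 and 88.0 FPKM in the CON libraries (1.15 ± 0.50, unadjusted p = 0.045, edgeR). PSMD2 and PSMD14 dropped to log2 fold changes of 0.61 and 0.78 when MV replicate 3 was left out. PSMD4, a ubiquitin receptor, had 0.88 ± 0.43, and the remaining 7 lay between 0.49 and 0.78.

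**Figure D2:**
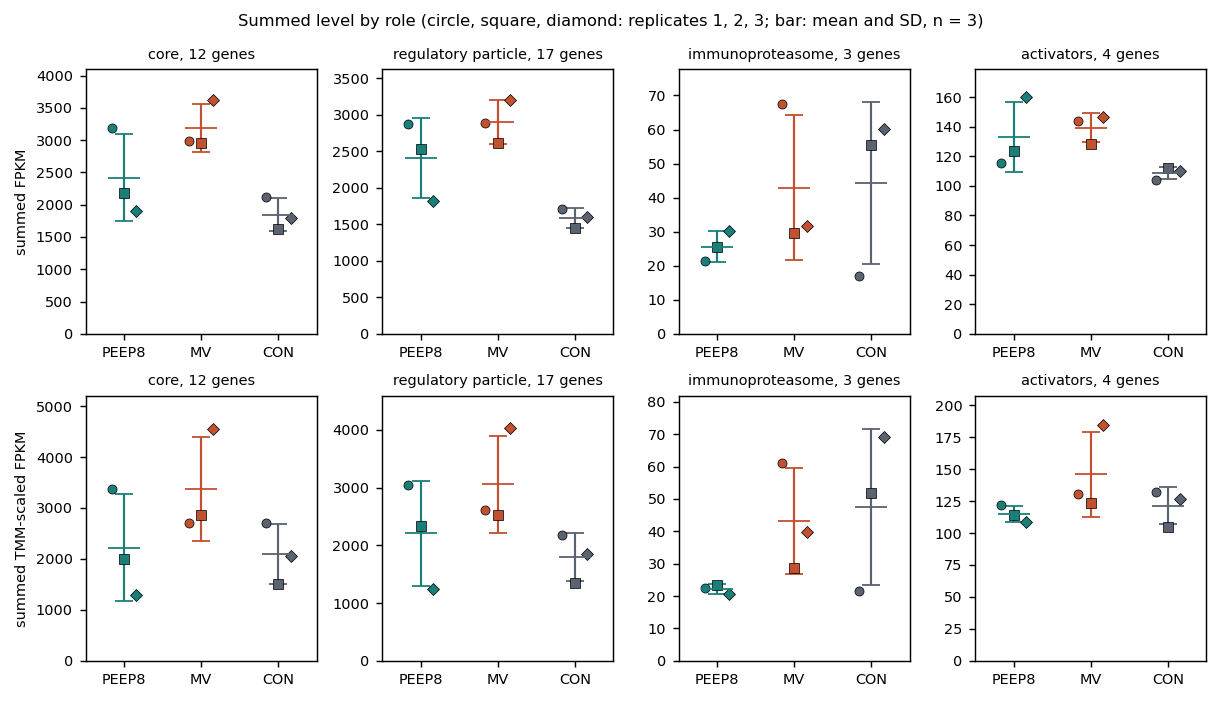
Summed level of the core (12 genes), regulatory particle (17), immunoproteasome (3) and activators (4) in FPKM (top) and in FPKM divided by the TMM factor (bottom), for PEEP8, MV and CON; symbols are libraries and bars the mean ± SD of 3. For core and regulatory particle the MV libraries lie above all CON libraries in both units, by 2712 against 2698 at the nearest for the TMM-scaled core, and PEEP8 spreads from 1896 to 3186 FPKM for the core.

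In the PEEP8 group the same subunits were spread more widely. The core summed to 3186, 2177 and 1896 FPKM and the regulatory particle to 2879, 2538 and 1814 FPKM in the PEEP8 libraries, against the CON sums given above. PEEP8 replicate 1 lay with the MV libraries, and PEEP8 replicate 3 lay within the CON range for the core and above it for the regulatory particle. After division by the TMM factor, PEEP8 replicate 3 became the lowest of the 9 libraries in 19 of the 29 subunits and MV replicate 3 the highest in 24. Against the CON group, 27 of 29 subunits were above 0 with a median log2 fold change of 0.21, beside 0.06 over all genes, and PSMB6 (-0.38 ± 0.45) and PSMA4 (-0.04 ± 0.32) were below it. The largest values were 0.63 ± 0.50 for PSMC1, 0.61 ± 0.43 for PSMD4 and 0.59 ± 0.35 for PSMD1. In FPKM 20 of the 45 members lay above all CON libraries and 1, PSMG4, below them, where 14.2% of all genes were separated upwards and 2.58% downwards. In TMM-scaled values 0 members were separated upwards, beside 6.21% of all genes.

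PSMD1 had 49.6, 46.4 and 37.8 FPKM in the PEEP8 libraries, against 21.5, 25.6 and 25.6 FPKM in the CON libraries, so that its groups did not overlap in FPKM. PSMD3, a structural subunit of the lid, had 146, 110 and 113 FPKM in the PEEP8 libraries, against 71.3, 77.3 and 63.7 FPKM in the CON libraries. For PSMC1 the PEEP8 libraries had 349, 287 and 173 FPKM, against 165, 112 and 153 FPKM in the CON libraries, and the lowest PEEP8 library was close to the highest CON library. PSMC4 had 77.5, 58.7 and 83.6 FPKM in the PEEP8 libraries, against 50.1, 54.5 and 46.6 FPKM in the CON libraries. PSMB3 had 410, 189 and 216 FPKM in the PEEP8 libraries, against 179, 137 and 171 FPKM in the CON libraries. Within the PEEP8 group, PSMB3, PSMC1, PSMA5 and PSMA1 were all highest in replicate 1, with 135, 93.9 and 78.8 FPKM for PSMA5 and 128, 104 and 92.9 FPKM for PSMA1.

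Against the CON group edgeR again gave no gene an adjusted p under 0.05 (0 of 12981, 0.0%; smallest adjusted p = 0.214), and the smallest for a member was 0.719. DESeq2 made 56 calls upwards and 42 downwards and limma made 2 and 0. Without adjustment, 0 members were higher and 1 was lower with p under 0.05 in edgeR, beside 419 of all genes (3.23%) upwards and 392 (3.02%) downwards. The direction rested on PEEP8 replicate 1: without it only 7 of the 29 subunits were above 0 and their median was -0.13, and without PEEP8 replicate 3 it was 28 of 29 with a median of 0.53 and 6 members higher at an unadjusted p under 0.05. Total count scaling also moved these values. Under it the median of all genes was 0.42 against the CON group and that of the 29 subunits 0.51, with 8 members higher at an unadjusted p under 0.05, so that the subunits stood little above the median gene.

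Set directly against the MV group, 0 of the 29 subunits were above 0 in the PEEP8 group. The median log2 fold change was -0.54, beside a median of all genes that rounds to 0.0. The duration and mode of ventilation in the PEEP8 group are not stated, so PEEP cannot be told apart from other differences in ventilation here. The values ran from -0.16 for PSMD3 to -0.78 for PSMB6, and 0 of the 29 were at an unadjusted p under 0.05 in edgeR. In FPKM only PSMB6 of the 29 lay in all PEEP8 libraries below all MV libraries, with 478, 362 and 286 FPKM in the PEEP8 libraries and 533, 530 and 626 FPKM in the MV libraries. The size rested on single libraries. The median was -0.23 without MV replicate 3 or PEEP8 replicate 3 and -0.82 without PEEP8 replicate 1. The direction of single subunits also had exceptions, since 6 of the 29 were above 0 without PEEP8 replicate 3, 1 without MV replicate 3 and 2 under total count scaling or limma. PEEP8 and MV were both compared with the same CON libraries, so their values stand side by side and are not independent of each other.

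**Figure D3:**
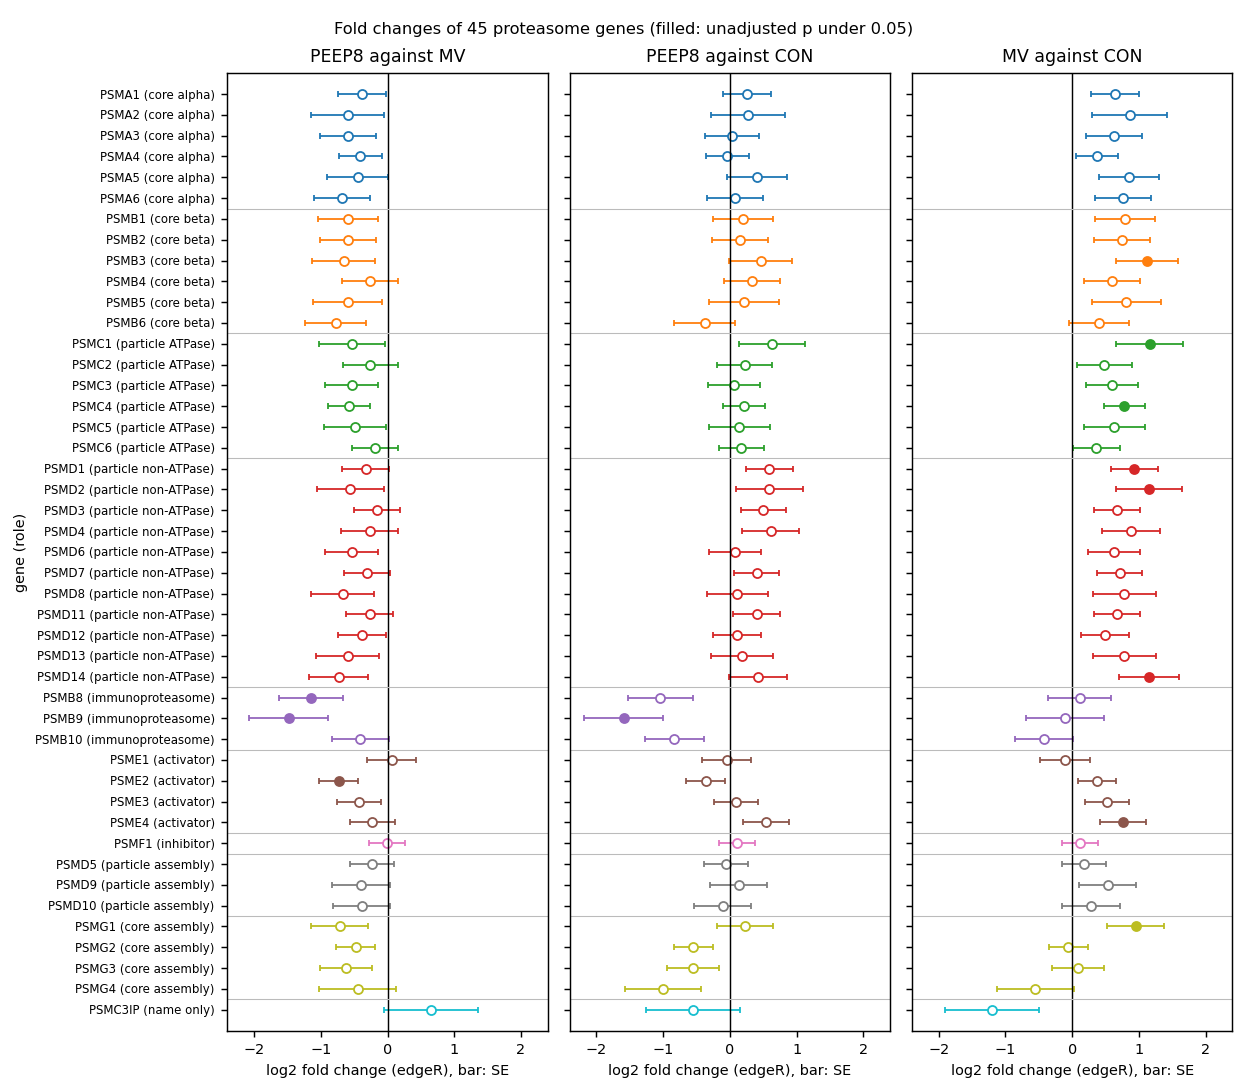
The log2 fold change of each of the 45 genes by edgeR (x axis) for PEEP8 against MV, PEEP8 against CON and MV against CON, with bars of 1 SE; filled points had an unadjusted p under 0.05. All 29 core and regulatory particle subunits lie right of 0 in MV against CON and left of 0 in PEEP8 against MV under the reported setting, and PSMB8, PSMB9 and PSMB10 lie left of 0 in both comparisons of PEEP8.

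Against the CON group the immunoproteasome subunits lay lower than the constitutive ones, with median log2 fold changes of -1.04 in the PEEP8 group and -0.11 in the MV group, and against the MV group both sets were below 0 in the PEEP8 group; the difference between the sets was not tested beyond the ratios given here. Summed over PSMB8, PSMB9 and PSMB10 the level was 21.3, 25.5 and 30.2 FPKM in the PEEP8 libraries, 67.4, 29.7 and 31.6 FPKM in the MV libraries and 16.9, 55.5 and 60.3 FPKM in the CON libraries. In the MV group against the CON group the log2 fold changes were 0.11 ± 0.47 for PSMB8, -0.11 ± 0.58 for PSMB9 and -0.42 ± 0.43 for PSMB10, each within its standard error. PSMB8 changed sign in 2 of the 21 alternatives and PSMB9 in 4. Single libraries stood out in both groups.

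PSMB8, the chymotrypsin-like subunit of the immunoproteasome, had 8.78, 7.07 and 10.7 FPKM in the PEEP8 libraries, 24.7, 12.9 and 13.1 FPKM in the MV libraries and 4.61, 20.1 and 20.1 FPKM in the CON libraries. All PEEP8 libraries were below all MV libraries, while CON replicate 1 was below every other library. PSMB9, which replaces PSMB6, had 5.04, 5.87 and 4.77 FPKM in the PEEP8 libraries, 19.3, 8.36 and 10.7 FPKM in the MV libraries and 3.15, 17.1 and 19.5 FPKM in the CON libraries. The PEEP8 group was narrow, with an SD of 0.571 FPKM, against 5.73 FPKM in the MV group and 8.82 FPKM in the CON group. PSMB10, which replaces PSMB7, had 7.43, 12.5 and 14.7 FPKM in the PEEP8 libraries, 23.4, 8.47 and 7.80 FPKM in the MV libraries and 9.09, 18.3 and 20.8 FPKM in the CON libraries. For PSMB10 all groups overlapped.

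Of the 45 members, only PSMB9 was lower with p under 0.05 before adjustment in the PEEP8 group against the CON group (log2 fold change -1.59 ± 0.59, unadjusted p = 0.023 and adjusted p = 0.719, edgeR), while PSMB8 had -1.04 ± 0.48 and PSMB10 -0.83 ± 0.44. This call was lost without CON replicate 2, CON replicate 3 or PEEP8 replicate 3, under total count scaling, in limma and with a replicate block. Against the MV group 3 members were lower with p under 0.05 before adjustment, beside 164 of all genes (1.26%), and 0 were higher, beside 293 (2.26%). They were PSMB9 (-1.48, unadjusted p = 0.032), PSMB8 (-1.15, unadjusted p = 0.036) and the activator PSME2 (-0.73, unadjusted p = 0.030) in edgeR, with adjusted p-values of 0.985. Over all genes edgeR made 0 calls at an adjusted p under 0.05 there (0 of 12981, 0.0%), DESeq2 made 9 upwards and 6 downwards, and limma made 1 and 0. The count of 3 became 0 when MV replicate 3, PEEP8 replicate 2 or PEEP8 replicate 3 was left out. It was 1 without MV replicate 1, a core or regulatory particle subunit and none of the 3 named, beside 239 of all genes. It was 9 without PEEP8 replicate 1, beside 385 of all genes, and 7 of the 9 were such subunits. In FPKM 3 members (PSMB6, PSMB8 and PSMB9) had no overlap downwards and 0 upwards, beside 1.53% and 4.86% of all genes, and in TMM-scaled values 4 (PSMB8, PSMB9, PSME2 and PSMG2) and 0, beside 2.9% and 3.1%.

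A ratio within a library does not depend on scaling, so each immunoproteasome subunit was also set against the constitutive subunit it replaces. PSMB8 was 2.34%, 3.26% and 5.48% of PSMB5 in the PEEP8 libraries, 9.31%, 4.33% and 2.83% in the MV libraries and 1.99%, 14.4% and 10.9% in the CON libraries. PSMB9 was 1.06%, 1.62% and 1.67% of PSMB6 in the PEEP8 libraries, 3.61%, 1.58% and 1.72% in the MV libraries and 0.682%, 5.76% and 4.55% in the CON libraries. PSMB10 was 1.65%, 4.03% and 6.18% of the summed PSMB7 genes in the PEEP8 libraries, 6.08%, 2.12% and 1.63% in the MV libraries and 3.57%, 8.20% and 7.35% in the CON libraries. The immunoproteasome message was thus a small share of the catalytic message everywhere, 1.60%, 2.78% and 4.03% of the summed FPKM of the 6 catalytic subunits in the PEEP8 libraries, 5.39%, 2.36% and 1.98% in the MV libraries and 1.75%, 7.76% and 6.32% in the CON libraries. In exact permutation tests (2-sided, 3 libraries against 3, where p cannot go below 0.1) the 9 differences of log2 ratio had p from 0.2 to 0.8, and 0.72 to 0.8 after adjustment over the 9. The lowest was that of PSMB10 to PSMB7 in the MV group against the CON group, a log2 difference of -1.12 (exact p = 0.2).

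**Figure D4:**
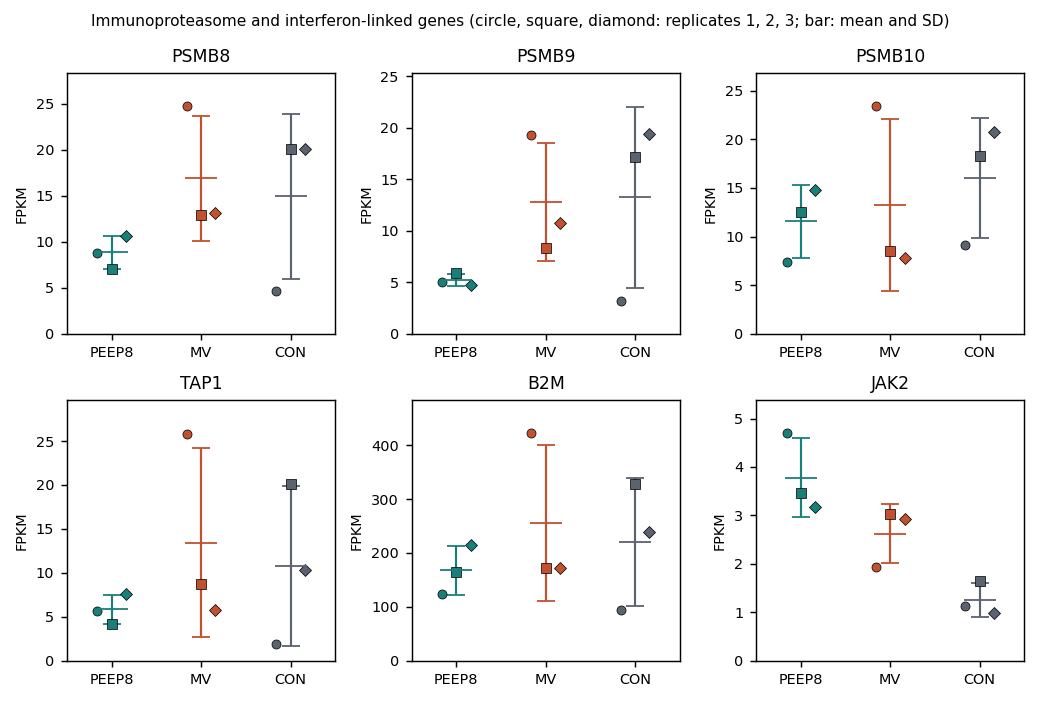
FPKM of PSMB8, PSMB9, PSMB10, TAP1, B2M and JAK2 (y axes from 0) in the PEEP8, MV and CON libraries, with the mean ± SD of 3. CON replicate 1 (circle) is the lowest CON library and MV replicate 1 the highest MV library in every panel but JAK2, and for JAK2 all PEEP8 libraries, 3.17 to 4.70 FPKM, lie above the others.

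The companion genes of the interferon response, a list chosen with earlier results of these data known, comprised 12 tested genes. Against the CON group, 7 were above 0 in the MV group, and p before adjustment was under 0.05 for 2 of them upwards and 0 downwards in edgeR; 4 were above 0 in the PEEP8 group with p under 0.05 for 1 upwards and 1 downwards. Over all genes these shares were 3.77% upwards and 3.19% downwards in the MV group and 3.23% and 3.02% in the PEEP8 group. UBD, a ubiquitin-like modifier induced by interferon, was listed at 0 in PEEP8 replicates 1 and 3 and had 0.104 FPKM in PEEP8 replicate 2, with 2.66, 0 and 0.459 FPKM in the MV libraries and 0.649, 3.16 and 1.47 FPKM in the CON libraries. NLRC5, a regulator of class I antigen presentation genes, had 0.335, 0.546 and 0.706 FPKM in the PEEP8 libraries, 2.59, 1.46 and 0.135 FPKM in the MV libraries and 0.263, 3.09 and 1.09 FPKM in the CON libraries, overlapping in each comparison with the CON group. Other genes of the list had positive values. JAK2, a kinase of the interferon receptor, had 4.70, 3.47 and 3.17 FPKM in the PEEP8 libraries, 1.93, 3.02 and 2.92 FPKM in the MV libraries and 1.14, 1.64 and 0.984 FPKM in the CON libraries, with both ventilated groups above all CON libraries. The receptor chain IFNGR2 had log2 fold changes of 0.77 ± 0.42 in the PEEP8 group and 1.01 ± 0.42 in the MV group against the CON group.

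TAP1 and B2M, named after their values were seen, showed the same libraries at the extremes as PSMB8 and PSMB9. TAP1, a subunit of the transporter that carries proteasomal peptides into the endoplasmic reticulum, had 5.72, 4.23 and 7.56 FPKM in the PEEP8 libraries, 25.8, 8.79 and 5.77 FPKM in the MV libraries and 1.88, 20.1 and 10.3 FPKM in the CON libraries. B2M, the light chain of class I antigen-presenting molecules, had 124, 165 and 214 FPKM in the PEEP8 libraries, 423, 172 and 173 FPKM in the MV libraries and 94.3, 328 and 239 FPKM in the CON libraries. CON replicate 1 was the lowest of the CON libraries and MV replicate 1 the highest of the MV libraries for both genes. Lymphocyte markers, of which CD3E, CD2 and MS4A1 were at 0 in at least 1 library, summed to 3.67, 3.14 and 6.13 FPKM in the PEEP8 libraries, 9.50, 3.15 and 6.39 FPKM in the MV libraries and 2.90, 9.34 and 11.8 FPKM in the CON libraries. Leukocyte markers summed to 21.2, 14.5 and 82.6 FPKM in PEEP8, 26.5, 21.7 and 21.7 FPKM in MV and 11.7, 24.6 and 28.6 FPKM in CON. Macrophage markers summed to 11.6, 13.5 and 83.7 FPKM in PEEP8, 20.0, 27.1 and 15.5 FPKM in MV and 5.48, 13.6 and 8.93 FPKM in CON. These 2 sums were highest in PEEP8 replicate 3, unlike PSMB8 and PSMB9. The part of these cell types in the result was not tested. PSMB8 and PSMB9 are neighbours on chromosome 12 of OryCun 2.0, at 23356782 to 23360614 and 23371426 to 23377476, and TAP1 lies between them, 0.8 kb from PSMB8 and 0.5 kb from PSMB9. PSMB10 lies apart on chromosome 5, at 23499923 to 23502817.

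The activators, which open the core in place of the regulatory particle, differed among themselves. PSME1 and PSME2 form the interferon-inducible activator and lie 4.9 kb apart on chromosome 17. PSME1 had 37.7, 52.5 and 67.7 FPKM in the PEEP8 libraries, 30.9, 33.7 and 55.1 FPKM in the MV libraries and 43.3, 39.6 and 42.0 FPKM in the CON libraries, overlapping in every comparison. PSME2 had 37.9, 35.6 and 48.3 FPKM in the PEEP8 libraries, 70.5, 45.1 and 54.4 FPKM in the MV libraries and 36.2, 44.97 and 42.3 FPKM in the CON libraries. Although their products work as a complex, only PSME2 had all MV libraries above all CON libraries in FPKM, by a margin of 45.11 to 44.97 FPKM at the nearest. After TMM scaling these groups overlapped for PSME2 as well.

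PSME3, the nuclear activator, had 21.0, 16.4 and 29.6 FPKM in the PEEP8 libraries, 17.9, 33.4 and 23.2 FPKM in the MV libraries and 15.9, 16.6 and 16.2 FPKM in the CON libraries. In FPKM the CON group was tight, with an SD of 0.332 FPKM, and the MV group was above it throughout. After TMM scaling the 2 groups overlapped, with 16.3, 32.2 and 29.2 in the MV libraries and 20.2, 15.5 and 18.6 in the CON libraries. The log2 fold change was 0.52 ± 0.33. PSME4, an activator linked to histone degradation, had 18.6, 19.0 and 14.2 FPKM in the PEEP8 libraries, 24.2, 15.9 and 14.03 FPKM in the MV libraries and 8.78, 10.98 and 9.64 FPKM in the CON libraries. In FPKM both ventilated groups lay above all CON libraries, and after TMM scaling only the MV group did. The log2 fold changes were 0.54 ± 0.34 in the PEEP8 group and 0.76 ± 0.34 in the MV group (unadjusted p = 0.14 and 0.047, edgeR). The second call was lost in 10 of 21 alternatives. Together the 4 activators were 3.62%, 5.67% and 8.42% of the core FPKM in the PEEP8 libraries, 4.80%, 4.33% and 4.05% in the MV libraries and 4.91%, 6.92% and 6.14% in the CON libraries. The MV libraries were thus below all CON libraries in this share while being above them in the activator sum in FPKM; TMM-scaled, the activator sums were 130.2, 123.7 and 184.3 in the MV libraries and 132.5, 104.9 and 126.4 in the CON libraries, which overlap. PSMF1, an inhibitor of the core, had 22.8, 26.8 and 27.7 FPKM in the PEEP8 libraries, 23.3, 24.6 and 18.7 FPKM in the MV libraries and 19.1, 19.7 and 17.7 FPKM in the CON libraries, with log2 fold changes of 0.11 ± 0.27 and 0.12 ± 0.27 against the CON group.

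The assembly chaperones, which help the subunits find their place and then leave, were also uneven. PSMG1, which pairs with PSMG2 to build the alpha ring, had 85.6, 73.8 and 57.7 FPKM in the PEEP8 libraries, 77.5, 91.0 and 135 FPKM in the MV libraries and 53.2, 46.5 and 51.2 FPKM in the CON libraries (0.95 ± 0.43 in the MV group against the CON group, unadjusted p = 0.05 as rounded and just under it before, edgeR). The value was 0.50 without MV replicate 3, and the call was lost in 8 of 21 alternatives. Its partner PSMG2 had 12.7, 14.8 and 16.4 FPKM in the PEEP8 libraries, 20.7, 14.4 and 16.8 FPKM in the MV libraries and 13.7, 18.2 and 19.0 FPKM in the CON libraries, overlapping throughout in FPKM. PSMG4 had 39.6, 51.0 and 45.5 FPKM in the PEEP8 libraries, 62.3, 14.1 and 75.3 FPKM in the MV libraries and 63.1, 59.8 and 92.3 FPKM in the CON libraries. PSMG4 was the one member below all CON libraries in the PEEP8 group in FPKM (-1.0 ± 0.57, unadjusted p = 0.11, edgeR), and in TMM-scaled values PSMG2, PSMG4 and PSME2 were, beside 6.16% of all genes. As a share of the core FPKM the core chaperones made up 4.88%, 6.96% and 7.25% in the PEEP8 libraries, 5.97%, 4.59% and 6.97% in the MV libraries and 7.00%, 8.64% and 10.2% in the CON libraries. Every MV library was below every CON library in this share, by 6.97% to 7.00% at the nearest.

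The chaperones of the regulatory particle were low and their groups overlapped in every comparison. PSMD9 had 20.2, 13.2 and 20.2 FPKM in the PEEP8 libraries, 14.9, 16.7 and 26.3 FPKM in the MV libraries and 16.4, 13.5 and 8.81 FPKM in the CON libraries. PSMD10, also known as gankyrin, had 4.91, 4.83 and 14.7 FPKM in the PEEP8 libraries, 8.61, 13 and 4.34 FPKM in the MV libraries and 5.12, 7.63 and 6.77 FPKM in the CON libraries. Its highest value lay in PEEP8 replicate 3 in FPKM and in MV replicate 2 after TMM scaling. PSMD5 had log2 fold changes of -0.06 ± 0.33 in the PEEP8 group and 0.18 ± 0.33 in the MV group against the CON group. PSMC3IP, which is no proteasome gene, averaged 3.00 ± 1.61 FPKM in the PEEP8 group, 1.67 ± 1.31 FPKM in the MV group and 3.44 ± 2.24 FPKM in the CON group.

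Other genes of the pathway were taken from lists chosen with earlier results known, 41 tested genes in all. In the MV group against the CON group 31 of the 41 were above 0 with a median of 0.39, and edgeR gave 7 upwards and 0 downwards an unadjusted p under 0.05, where 6663 of all 12981 genes were above 0 and 3.77% were called upwards and 3.19% downwards. In the PEEP8 group against the CON group 27 were above 0 with a median of 0.08, with 3 upwards and 1 downwards, beside 7090 of all genes above 0 and shares of 3.23% and 3.02%. The shares over all genes apply to each list below, whose counts are small. Among 9 proteasome-bound and assembly factors, 6 were above 0 in the MV group and only TXNL1 had an unadjusted p under 0.05. TXNL1, a thioredoxin-like protein bound to the regulatory particle, had 72.2, 84.9 and 55.8 FPKM in the PEEP8 libraries, 97.6, 91.0 and 126 FPKM in the MV libraries and 49.1, 50.2 and 51.8 FPKM in the CON libraries (0.99 ± 0.39 in the MV group against the CON group, unadjusted p = 0.028, edgeR). POMP, the maturation factor of the core, had 369, 259 and 192 FPKM in the PEEP8 libraries, 399, 396 and 601 FPKM in the MV libraries and 246, 167 and 240 FPKM in the CON libraries. In FPKM all MV libraries were above all others for POMP, with a log2 fold change of 1.02 ± 0.50 against the CON group. After TMM scaling they stayed above all CON libraries but overlapped with the PEEP8 group. PAAF1 and UBE3C had 0.80 ± 0.40 and 0.97 ± 0.57 in the same comparison.

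Of the 9 shuttles and unfoldase genes, which bring ubiquitinated proteins to the proteasome, 9 were above 0 in the MV group and 2 had an unadjusted p under 0.05, both upwards, beside 6663 of 12981 and 3.77% over all genes. The shuttle UBQLN1 had 62.0, 40.7 and 48.6 FPKM in the PEEP8 libraries, 41.2, 55.8 and 71.1 FPKM in the MV libraries and 26.9, 28.6 and 24.3 FPKM in the CON libraries (1.03 ± 0.41 in the MV group against the CON group, unadjusted p = 0.031, edgeR). UFD1L, a cofactor of the unfoldase VCP, had 84.9, 69.5 and 53.0 FPKM in the PEEP8 libraries, 109, 103 and 124 FPKM in the MV libraries and 65.4, 47.4 and 46.1 FPKM in the CON libraries (0.98 ± 0.41 in the MV group against the CON group, unadjusted p = 0.039, edgeR). VCP itself had 0.72 ± 0.47 in the PEEP8 group and 0.85 ± 0.47 in the MV group against the CON group, and UBQLN4 had 0.29 ± 0.27 and 0.51 ± 0.27. Of the ubiquitin genes UBB and RPS27A and the ubiquitin-activating enzymes UBA1 and UBA6, 0 were at an unadjusted p under 0.05 in any comparison, with UBB at -0.40 ± 0.40, UBA6 at 0.01 ± 0.57, UBA1 at 0.53 ± 0.33 and RPS27A at 0.74 ± 0.53 in the MV group against the CON group. All MV libraries were above all CON libraries for RPS27A in FPKM and for UBA1 only after TMM scaling.

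Of the 7 genes that control proteasome genes, 6 were above 0 in both ventilated groups against the CON group, and in each of these groups 2 had an unadjusted p under 0.05 upwards and 0 downwards, beside 3.23% of all genes upwards in the PEEP8 group and 3.77% in the MV group. NFE2L1, the factor that raises proteasome genes when proteasome activity falls short, had 82.0, 123 and 133 FPKM in the PEEP8 libraries, 117, 101 and 53.4 FPKM in the MV libraries and 47.2, 66.5 and 39.3 FPKM in the CON libraries. Its log2 fold change was 0.81 ± 0.34 in the PEEP8 group and 0.70 ± 0.34 in the MV group (unadjusted p = 0.041 and 0.068, edgeR). NFE2L2, the related antioxidant factor, had 34.1, 53.2 and 63.0 FPKM in the PEEP8 libraries, 115, 43.99 and 33.0 FPKM in the MV libraries and 25.1, 32.3 and 26.6 FPKM in the CON libraries, so that both ventilated groups lay above all CON libraries. STAT3, a factor activated by interleukins, had 31.6, 37.9 and 75.1 FPKM in the PEEP8 libraries, 87.8, 42.4 and 22.6 FPKM in the MV libraries and 12.2, 21.4 and 18.1 FPKM in the CON libraries (1.1 ± 0.42 in the PEEP8 group and 1.41 ± 0.43 in the MV group). NGLY1, the enzyme that prepares NFE2L1 for the nucleus, had 0.24 ± 0.36 and 0.40 ± 0.36. The order of libraries differed between some of these factors and the subunits: MV replicate 3, the library with the highest value for 17 of the 29 subunits in FPKM, was the lowest MV library for NFE2L1, NFE2L2 and STAT3, but not for NGLY1, where it was the highest, or for FOXO3.

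The members are spread over the genome. On OryCun 2.0, 35 of the 45 lie on 14 chromosomes and 10 on unplaced scaffolds, with 8 on chromosome 19 and 6 on chromosome 17. Apart from the PSMB8 and PSMB9 cluster and the PSME1 and PSME2 pair, the closest members placed on one chromosome are PSMB4 and PSMD4, 147.2 kb apart on chromosome 13. Several subunits have a further gene in the table with the same description, and reads could be shared between such copies. The largest is a second gene described as the PSMA2 subunit, with a mean of 29.7 FPKM, so the level of PSMA2 is uncertain: PSMA2 had 122, 60.2 and 66.2 FPKM in the PEEP8 libraries, 68.8, 97.7 and 153 FPKM in the MV libraries and 78.5, 57.2 and 33.7 FPKM in the CON libraries. The copies of PSMC1, PSMC5, PSMB1, PSME4 and PSMC4 were lower, with means of 14.1, 12.9, 5.86, 3.15 and 2.97 FPKM. SEM1, a small subunit of the regulatory particle that the names used here do not cover, appears as further unnamed genes with means of 609.8, 59.9 and 5.77 FPKM. The most abundant had 591, 424 and 512 FPKM in the PEEP8 libraries, 737, 459 and 775 FPKM in the MV libraries and 821, 488 and 682 FPKM in the CON libraries. This gene, above PSMB6 in mean level in every group, overlapped between MV and CON, unlike 28 of the 29 named subunits. The PSMB7 genes were split unevenly, with 104, 187 and 158 FPKM in the first and 281, 213 and 319 FPKM in the second in the MV libraries, and only their sum is used.

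**Figure D5:**
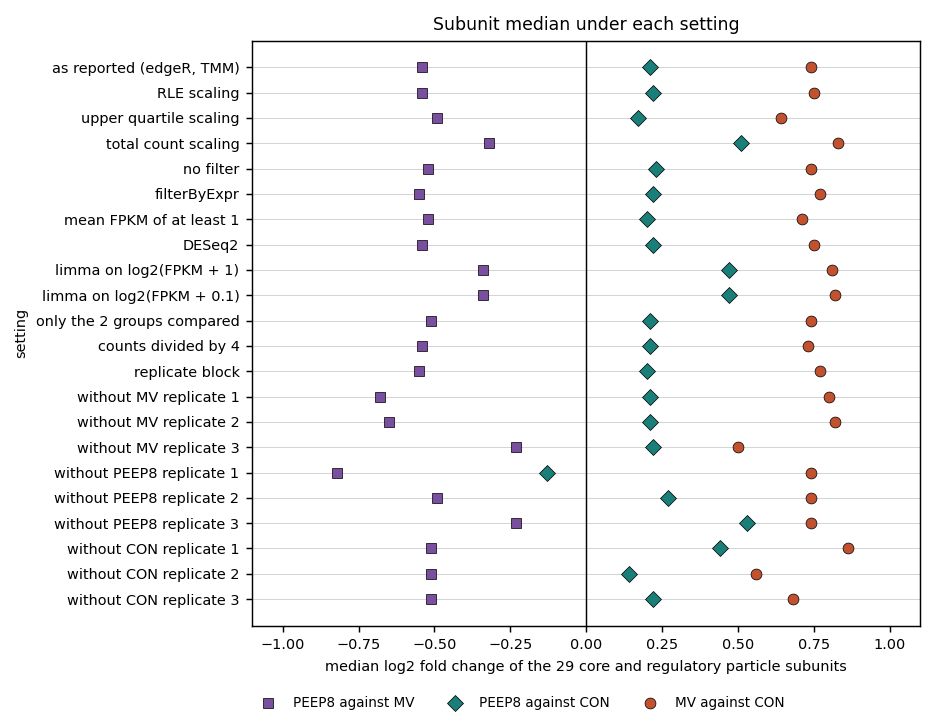
Median log2 fold change (x axis) of the 29 core and regulatory particle subunits under the reported setting and 21 alternatives, for PEEP8 against MV, PEEP8 against CON and MV against CON. MV against CON lies between 0.50 and 0.86 under every setting shown, PEEP8 against CON between -0.13 and 0.53, and PEEP8 against MV between -0.82 and -0.23.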

How the data were processed

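RNA-seq of 9 rabbit diaphragm libraries was analysed from the table deposited by the authors, which holds a whole-number count and an FPKM per gene and library. The submitters' processing notes name cutadapt 1.9, HISAT2 2.0.4, OryCun 2.0 and StringTie 1.3.4d; the program behind the deposited counts is not given in the sources used here. The FPKM deposited by the authors was proportional to the count within a gene and stood at 0.0001 for a count of 0. Of 16302 counts from 1 to 12, 54.3% were multiples of 4, so counts divided by 4 were tried.

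Genes with a mean of at least 0.5 FPKM were tested with edgeR 4.0.16 in R 4.3.3 (TMM scaling, 1 mean per group, quasi-likelihood test, common biological coefficient of variation 0.552), and p-values were adjusted by Benjamini and Hochberg over 12981 genes. Fold changes carry 1 SE, levels the SD over 3 libraries. The ratios of catalytic subunits were compared with exact permutation tests in scipy 1.17.1. The edgeR, DESeq2 and limma fits were run on counts simulated with known fold changes. A pass mark was set for edgeR only, at a spread between libraries well below that of these data. The run near the spread of these data had no pass mark, so the check does not show what edgeR could call here. Alternatives were other scalings, filters and pseudocounts, DESeq2 1.42.0, limma 3.58.1, fits of 2 groups, a replicate block and leaving out each library. Every member may be named; values in every library are given for the catalytic subunits, activators and inhibitor and, by role, the 2 genes of smallest p in MV and in PEEP8 against CON. In each companion list the 4 genes of smallest p are named, with NFE2L1 and NFE2L2. One gene of these lists is not reported here and was left out of their counts. The members and lists were chosen with earlier results of these data known. Promoter and protein sequences were not analysed here. The numbers of replicates did not pair libraries across groups: same-numbered libraries correlated at -0.284 to 0.364.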

Additional observations from a re-analysis of the deposited data

How the results depend on the processing

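The median log2 fold change of the 45 members stayed between 0.42 and 0.76 for MV against CON, between -0.15 and 0.39 for PEEP8 against CON and between -0.78 and -0.24 for PEEP8 against MV when each library was left out. Counts of calls depended on the processing. For MV against CON the higher count of 8 was 4 with upper quartile scaling, 26 with total count scaling and with limma at either pseudocount, and 2 with the replicate block, and it ran from 0 to 12 when a library was left out, while the lower count ran from 0 to 1. Over all 12981 genes the higher counts were 392 with upper quartile scaling and 733 with total count scaling. They were 678 and 714 with limma and 370 with the replicate block. For PEEP8 against CON the higher count of 0 was 8 with total count scaling and with limma at either pseudocount, and ran from 0 to 6 without single libraries, and the lower count of 1 was 2 with upper quartile scaling, with no filter and with only the 2 groups compared, 0 with total count scaling, both limma settings and the replicate block, and ran from 0 to 2. Over all genes the higher counts were 1060 with total count scaling and 822 and 852 with limma. For PEEP8 against MV the lower count of 3 was 0 with total count scaling, both limma settings and the replicate block, and ran from 0 to 9. Without PEEP8 replicate 1, which gave the 9, the lower count over all genes was 385. The cause of these shifts was not tested; total count scaling moved the median of all genes to 0.13 for MV against CON, 0.42 for PEEP8 against CON and 0.25 for PEEP8 against MV. Genes past an adjusted p of 0.05 numbered 154, 98 and 15 in DESeq2 for MV against CON, PEEP8 against CON and PEEP8 against MV, and 2, 2 and 1 in limma on log2(FPKM + 1), 2, 2 and 0 with a pseudocount of 0.1, with 0 members among them, and in edgeR 0 to 1 for both comparisons of PEEP8 without single libraries (1 without CON replicate 3 and 1 without MV replicate 1).

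The replicate block, which treats equal replicate numbers as pairs, changed no direction of a median: the member medians under the block were 0.67, 0.14 and -0.51 in the same order. Same-numbered libraries did not deviate together, so the block is given as an alternative only. The difference of log2 ratio for MV against CON ran, leaving out single libraries, from -1.37 to 0.06 for PSMB8 to PSMB5, from -1.26 to 0.28 for PSMB9 to PSMB6 (0.11 at the other reversal) and from -1.69 to -0.74 for PSMB10 to PSMB7. For PEEP8 against CON it ran from -1.86 to -0.43, from -1.85 to -0.31 and from -1.22 to -0.27, and for PEEP8 against MV from -0.87 to -0.01, from -0.81 to -0.21 and from -0.10 to 0.89 (-0.06 at the other reversal). Divided by the TMM factor the mean CON sum was 1791 for the regulatory particle and 121.2 for the activators.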
